A study of Homo sapiens and Mus musculus with 24 samples.

Results

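The genes described here are 35 targets and partners of the transcription factor NRF2 together with genes of the pentose phosphate pathway, followed through 12 RNA sequencing libraries of MCF10A cells. They were chosen by gene symbol, and all 35 of 35 were found among the 56981 symbols of the deposited tables, where they are spread over 296 of 207749 transcripts. MCF10A is an established, non-tumorigenic line of human breast epithelial cells. In KI cells 1 of the PIK3CA alleles carries H1047R, a knocked-in change that activates the kinase PI3K alpha, and the parental cells are the isogenic line without it, both bought from a supplier. The 4 groups were KI cells with BYL719, KI cells with DMSO, parental cells with BYL719 and parental cells with DMSO, with n = 3 libraries each. BYL719 is alpelisib, an inhibitor of PI3K alpha, given at 1 µM for 4 h, and DMSO is its solvent. If KI is a single clone, clone and genotype cannot be told apart. The sources used here do not state whether replicates are separate cultures, so p-values measure only the spread between these libraries. The other 12 libraries of the series, from mouse fibroblasts, were not analysed here.

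NRF2, the product of NFE2L2, is held at a low level by KEAP1, which brings it to a ubiquitin ligase for destruction. Oxidants and electrophiles block KEAP1, and NRF2 then pairs with a small MAF protein on antioxidant response elements in the DNA of its targets. Those targets supply glutathione and thioredoxin, reduce quinones and carbonyls, break down haem and store iron, export conjugates, and feed NADPH production, for which the pentose phosphate pathway is a main source. Because NRF2 is controlled largely through the stability of its protein, the RNA level of NFE2L2 is not a measure of its activity.

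The core antioxidant response element reads TGACNNNGC, and the overlapping element of the AP-1 factors reads TGACTCA. Promoters from RefSeq (GRCh38.p14, 250 bases before to 50 after each annotated start) were at hand for 28 of the 35 members, in 33 windows. HMOX1, GSR, AKR1B10, FTH1, ABCC3, TRIM16L and PRDX1 had no entry. Searched on both strands, the core letters stood in 10 of these 28 genes (35.7%), against 4384 of all 27305 genes in the table (16.1%). The AP-1 letters stood in 3 of 28 (10.7%), against 6.05% of all genes. The core was present in 2 of the 11 genes with an entry that differed between the lines in DMSO by at least 1.5-fold (18.2%), and in 8 of the 17 others (47.1%). A match of letters is a description and no evidence of binding. Elements outside these windows were not searched, and some windows stand at starts that few reads use. In KI cells with DMSO, transcripts that begin in the AKR1C3 windows took 0.096% and 0.757% of its reads. That share was at most 0.207% for NFE2L2 and 47.7% for NQO1, while for others, such as FTL and SRXN1, it was 100%. The shares of genes with the core therefore do not show which genes lack an element.

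Printed here are the windows of those 2 genes, TXNRD1 and GPX2, since they differed between the lines in opposite directions and both hold the core. Letters run 5′ to 3′ on the strand of the gene and capitals mark each match of the core or its reverse complement. The first TXNRD1 window is chr12:104215529-104215828 and the second chr12:104286782-104287081, both on the plus strand, and the GPX2 window is chr14:64942696-64942995 on the minus strand.
TXNRD1 start 1: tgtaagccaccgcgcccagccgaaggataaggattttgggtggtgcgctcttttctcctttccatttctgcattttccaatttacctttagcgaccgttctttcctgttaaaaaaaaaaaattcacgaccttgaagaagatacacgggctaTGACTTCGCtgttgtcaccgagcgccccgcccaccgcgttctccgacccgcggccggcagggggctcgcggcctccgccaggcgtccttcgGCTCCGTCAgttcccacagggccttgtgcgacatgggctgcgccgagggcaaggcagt
TXNRD1 start 2: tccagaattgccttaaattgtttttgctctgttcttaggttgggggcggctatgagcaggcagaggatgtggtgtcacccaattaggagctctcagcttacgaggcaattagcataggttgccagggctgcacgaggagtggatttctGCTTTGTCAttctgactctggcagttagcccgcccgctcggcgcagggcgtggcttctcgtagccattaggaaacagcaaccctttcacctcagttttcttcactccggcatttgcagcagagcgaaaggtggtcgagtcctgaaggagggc
GPX2: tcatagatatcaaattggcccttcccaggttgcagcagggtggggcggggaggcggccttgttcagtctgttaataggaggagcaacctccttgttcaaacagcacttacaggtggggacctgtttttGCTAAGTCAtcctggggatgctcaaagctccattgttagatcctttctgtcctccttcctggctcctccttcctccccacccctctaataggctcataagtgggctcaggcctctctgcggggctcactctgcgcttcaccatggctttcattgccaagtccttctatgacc
The first TXNRD1 window holds 2 matches, TGACTTCGC at 99 to 91 bases before the start and GCTCCGTCA across the start itself. Transcripts that begin there took 0.983 ± 0.0344% of TXNRD1 reads in KI cells and 0.319 ± 0.287% in parental cells, both in DMSO (SD, n = 3). The second window holds GCTTTGTCA, centred 98 bases before the start, and transcripts that begin there took 45.8 ± 3.07% in KI cells and 43.1 ± 2.27% in parental cells. The GPX2 match, GCTAAGTCA, is centred 118 bases before the start.

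**Figure D1:**
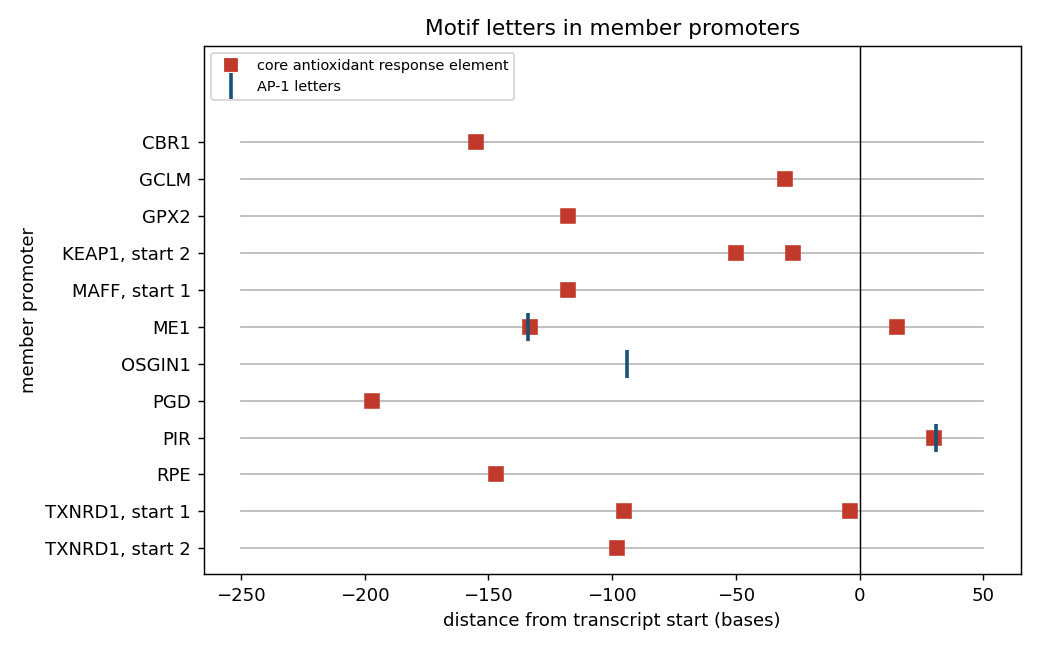
Motif letters in the 12 member promoter windows that hold a match, placed by distance in bases from the annotated transcript start (0), with each grey line a whole window. Red squares are the core antioxidant response element and blue ticks the AP-1 letters, which overlap the core in ME1 and PIR and stand alone in OSGIN1.

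Among the other members, the core was found in CBR1, GCLM, KEAP1, MAFF, ME1, PGD, PIR and RPE. ME1 and PIR hold TGACTCAGC or its reverse complement GCTGAGTCA, in which the core and AP-1 letters overlap. KEAP1, whose product represses NRF2, holds 2 matches in its second window. The transcript that begins there, KEAP1-202, took 38.5 ± 1.37% of KEAP1 reads in KI cells with DMSO and 32.5 ± 2.71% in parental cells with DMSO.

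The libraries held 120177015 to 162755457 estimated read pairs, and levels are given as CPM, counts scaled to an equal total in every library. Fold changes are KI over parental or BYL719 over DMSO, on a log2 scale with standard error, from edgeR's quasi-likelihood test fitted to 21055 symbols in all 12 libraries. A gene was called when its p, adjusted by Benjamini-Hochberg over those symbols, was under 0.05, and all 35 members passed the filter on low counts. KI DMSO replicate 2 stood apart from the other KI DMSO libraries, with a chi-square per degree of freedom of 145 to 167 against them, where they differed from each other by 9.39. Of the members, 10 were above and 4 below the mean of those libraries by more than 0.2 (log2) in it, from -0.44 for GPX2 to 0.50 for TXN. The same was not counted over all symbols, so whether these counts are particular to the members was not tested. All 12 basal epithelial markers were at or above 1 CPM in every group, but several differed between the lines. In DMSO, KRT14 averaged 263 CPM in KI cells and 52.0 in parental cells, TP63 27.7 in KI cells and 78.8 in parental cells, and CDH1 109.7 in KI cells and 241 in parental cells. The sum of the 12 in DMSO was 12566 to 13698 CPM in KI cells and 15067 to 15365 in parental cells, and under BYL719 13536 to 14376 in KI cells and 14932 to 15706 in parental cells. Of 6 haematopoietic markers, CD14 was at 3.30 to 4.99 CPM across groups and the others, PTPRC and HBB among them, at or below 0.0518. Of 6 fibroblast markers, DCN averaged 139.6 CPM in KI cells with BYL719, 53.9 in KI cells with DMSO, 10.5 in parental cells with BYL719 and 4.66 in parental cells with DMSO, while COL1A1 was at 20.9 to 24.9 CPM and COL1A2, COL3A1, PDGFRB and LUM reached at most 1.52. In bulk RNA, more cells of a type and more RNA per cell cannot be told apart. The sum of these 6 was 141 to 179, 76.0 to 78.4, 34.7 to 37.7 and 28.4 to 30.1 CPM in the same order of groups, and the part of these markers in the results below was not tested. The knock-in changes a base of PIK3CA, so its RNA level does not check the genotype, which was not analysed here. PIK3CA was at 69.3 to 72.2 CPM in KI cells with BYL719, 33.4 to 44.3 in KI cells with DMSO, 66.7 to 72.1 in parental cells with BYL719 and 55.9 to 59.2 in parental cells with DMSO.

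In DMSO, NRF2 target genes were for the most part higher in KI than in parental cells. Of the 35 members, 28 were higher and 4 lower, against 17% and 17.3% of all 21055 symbols. The members were chosen with earlier results of these data known, so this contrast is descriptive and does not test them as a set. The members' median log2 fold change was 0.54, where that of all symbols was 0.00. At least 1.5-fold differences were called for 14 members that were higher and 1 that was lower, against 5.12% and 8.23% of all symbols. Fitting only these 6 libraries called 26 members, 23 higher and 3 lower, and leaving out KI DMSO replicate 2 called 31, with a median of 0.43. Over all symbols the first fit called 5047 of 19973 and the second 8386 of 21497. Summed over all members, the level was 10569, 11914 and 10439 CPM in the KI libraries and 6946, 7025 and 6954 CPM in the parental libraries, and FTH1 alone makes up a large part of each sum.

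**Figure D2:**
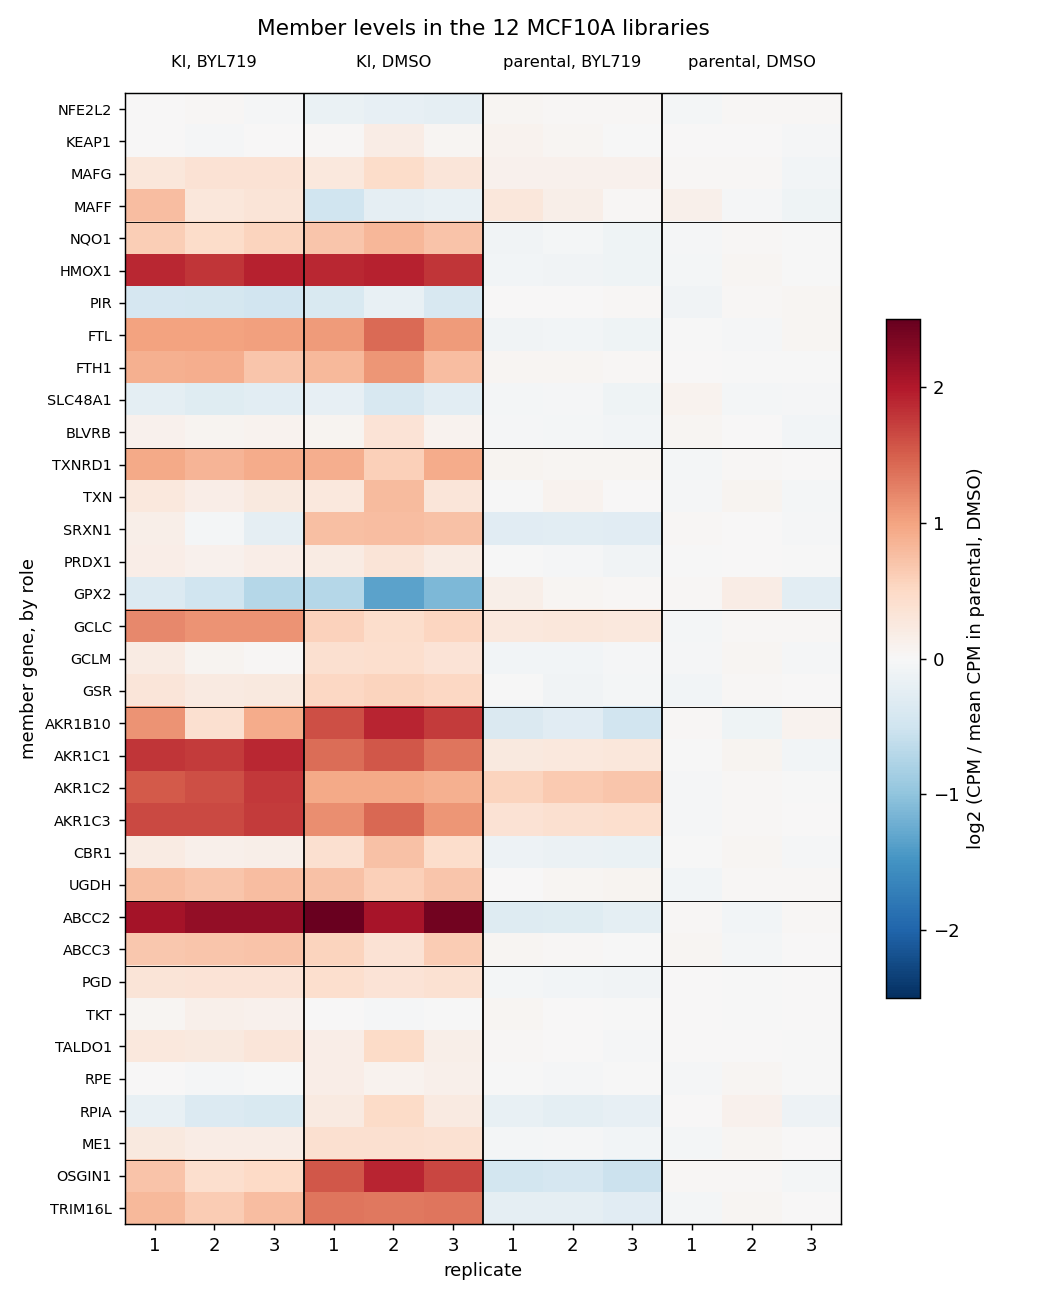
Level of each of the 35 members in each of the 12 libraries, as log2 of its CPM over its mean CPM in parental cells with DMSO. Columns are replicates 1 to 3 of each group and rows are grouped by role, with white at the parental DMSO mean. ABCC2, HMOX1 and the AKR1C genes are red throughout both KI groups, and OSGIN1, TRIM16L and SRXN1 are paler in KI cells with BYL719 than in KI cells with DMSO.

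Of the 4 regulators MAFG was called higher and NFE2L2 lower, each by less than 1.5-fold. NFE2L2, which encodes NRF2, was at 111, 108 and 106 CPM in KI cells and 120.2, 126 and 126 CPM in parental cells. The groups did not overlap, and the gene was lower in KI cells by a small margin (log2 -0.17 ± 0.0415, adjusted p = 0.00705). Fitted on these 6 libraries alone the call was lost (adjusted p = 0.0543). KEAP1 was at 104, 116 and 105 CPM in KI cells and 102, 103 and 100.5 CPM in parental cells, without overlap, and its difference was not called (log2 0.12 ± 0.053, adjusted p = 0.107). The value was 0.05 without KI DMSO replicate 2 (adjusted p = 0.241), and with effective-length offsets it was called at 0.24 (adjusted p = 0.0315). MAFG, a small MAF partner, was higher, at 77.6, 89.1 and 80.0 CPM in KI cells and 66.1, 65.8 and 61.6 CPM in parental cells (log2 0.38 ± 0.0579, adjusted p = 0.000293). Its relative MAFF was at 10.2, 12.4 and 12.6 CPM in KI cells against 15.7, 14.1 and 13.3 CPM in parental cells, without overlap but not called (log2 -0.27 ± 0.131, adjusted p = 0.142).

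Quinone, haem and iron genes held some of the widest differences, with 5 of 7 higher and 2 lower. HMOX1, haem oxygenase 1 (chromosome 22, 35380361 to 35394214, GRCh38 as in GENCODE 29, like the positions that follow), breaks haem down to biliverdin, iron and carbon monoxide. It was at 24, 24.7 and 22.4 CPM in KI cells and 6.30, 6.78 and 6.52 CPM in parental cells. Every KI library was far above every parental library (log2 1.89 ± 0.0632, adjusted p = 6.15e-10). NQO1 (chromosome 16, 69706996 to 69726951), a quinone reductase and a standard readout of NRF2, was at 638, 695 and 641 CPM in KI cells and 386, 401 and 387 CPM in parental cells (log2 0.78 ± 0.0556, adjusted p = 4.84e-07). The subunits of ferritin, which stores iron, rose together. FTL, the light chain (chromosome 19, 48965301 to 48966878), was at 623, 792 and 623 CPM in KI cells and 293, 290.1 and 306 CPM in parental cells (log2 1.23 ± 0.0867, adjusted p = 4.35e-07). FTH1, the heavy chain (chromosome 11, 61959718 to 61967660), was at 3738, 4595 and 3648 CPM in KI cells and 2150.4, 2131 and 2138 CPM in parental cells (log2 0.93 ± 0.0894, adjusted p = 6.44e-06). KI replicate 2 was the highest library for both, and without it the log2 fold changes were 1.08 for FTL and 0.80 for FTH1.

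The remaining 3 moved less. BLVRB, a biliverdin and flavin reductase, was higher by 0.20 ± 0.0709 (log2, adjusted p = 0.0417). That call was lost when any parental library, KI DMSO replicate 2 or KI BYL719 replicate 2 or 3 was left out (adjusted p up to 0.13), and without KI DMSO replicate 2 the value was 0.10. PIR, an iron-binding nuclear protein, was lower, at 22.4 to 26.0 CPM in KI cells and 28.1 to 30.9 CPM in parental cells (log2 -0.30 ± 0.0673, adjusted p = 0.00444). SLC48A1, a haem transporter, was lower as well (log2 -0.27 ± 0.059, adjusted p = 0.00394), though not with effective-length offsets (log2 -0.16, adjusted p = 0.219).

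Of the thioredoxin and peroxide genes 4 of 5 were higher and GPX2 was lower. TXNRD1 (chromosome 12, 104215779 to 104350305), the cytosolic thioredoxin reductase, was at 443, 353 and 445 CPM in KI cells and 228, 241 and 235 CPM in parental cells. All KI libraries were above all parental ones, with replicate 2 the lowest of the KI libraries (log2 0.84 ± 0.0695, adjusted p = 1.66e-06). SRXN1, sulfiredoxin (chromosome 20, 646615 to 653370), which restores overoxidised peroxiredoxins, was at 178, 179.9 and 176 CPM in KI cells and 108, 107 and 104 CPM in parental cells (log2 0.77 ± 0.0719, adjusted p = 5.04e-06). TXN, thioredoxin, was at 427, 612 and 439 CPM in KI cells and 349.9, 373 and 346 CPM in parental cells. Its log2 fold change of 0.50 ± 0.116 (adjusted p = 0.00541) was 0.29 without KI replicate 2 (adjusted p = 4.72e-05), and on these 6 libraries alone it was not called (adjusted p = 0.0517). PRDX1, a peroxiredoxin, was higher by 0.27 ± 0.05 (log2, adjusted p = 0.0013).

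GPX2 (chromosome 14, 64939152 to 64942905), a glutathione peroxidase of epithelia, is a known NRF2 target and went the other way. It was at 0.823, 0.534 and 0.624 CPM in KI cells and 1.38, 1.53 and 1.13 CPM in parental cells. The groups did not overlap, at a level that was low in both lines (log2 -1.0 ± 0.164, adjusted p = 0.000497).

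All 3 genes of glutathione synthesis and recycling were higher, each by less than 1.5-fold. GCLC, the catalytic subunit of glutamate-cysteine ligase, was at 163, 147 and 158 CPM in KI cells and 105, 111 and 111 CPM in parental cells (log2 0.54 ± 0.0459, adjusted p = 2.15e-06). GCLM, its modifier subunit, was at 149, 152 and 144 CPM in KI cells and 111, 117 and 110.3 CPM in parental cells (log2 0.42 ± 0.0539, adjusted p = 7.38e-05). GSR, glutathione reductase, was at 121, 123 and 119.9 CPM in KI cells and 80.5, 86.3 and 85.1 CPM in parental cells (log2 0.56 ± 0.0476, adjusted p = 2.3e-06). For each of them every KI library was above every parental library.

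The carbonyl reductases and the conjugation enzyme UGDH were higher in all 6 cases, by 0.56 to 1.79 (log2). AKR1C1, AKR1C2 and AKR1C3 are aldo-keto reductases that act on steroids, prostaglandins and aldehydes, and they lie side by side on chromosome 10 at 4963253 to 4983283, 4987400 to 5018031 and 5035354 to 5107686. AKR1C1 was at 309, 341 and 295 CPM in KI cells and 116, 123 and 112 CPM in parental cells (log2 1.46 ± 0.0656, adjusted p = 9.52e-09). AKR1C2 was at 432, 435 and 419 CPM in KI cells and 219.7, 231 and 223 CPM in parental cells (log2 0.96 ± 0.0612, adjusted p = 1.73e-07). AKR1C3 was at 155, 187 and 149 CPM in KI cells and 67.8, 70.9 and 70.0 CPM in parental cells (log2 1.26 ± 0.0801, adjusted p = 1.62e-07). The 3 neighbours thus moved in the same direction without overlap. Of the 31-base words of the leading AKR1C1 transcript 61.6% also occur in AKR1C2, and of those of AKR1C2 67.0% occur in AKR1C1, so the split of reads between them is uncertain. For AKR1C3 the share held with any other symbol was 17.4%.

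AKR1B10 (chromosome 7, 134527592 to 134541408), a reductase of aldehydes and retinal, was at 2.23, 2.72 and 2.47 CPM in KI cells and 0.743, 0.674 and 0.775 CPM in parental cells (log2 1.79 ± 0.172, adjusted p = 6.38e-06). UGDH (chromosome 4, 39498755 to 39528311) makes UDP-glucuronate for conjugation. It was at 70.2, 63.2 and 68.3 CPM in KI cells and 40.3, 43.0 and 42.6 CPM in parental cells (log2 0.71 ± 0.0487, adjusted p = 3.39e-07). CBR1, a carbonyl reductase, was at 112, 140.3 and 115 CPM in KI cells and 84.5, 87.0 and 82.4 CPM in parental cells (log2 0.56 ± 0.0794, adjusted p = 0.000164), and its log2 fold change was 0.43 without KI replicate 2.

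Both export pumps were higher. ABCC2 (chromosome 10, 99782640 to 99852594), which exports glutathione and glucuronide conjugates, was at 48.0, 36.1 and 46.4 CPM in KI cells and 8.86, 8.26 and 8.89 CPM in parental cells. This was the largest log2 fold change among the 35 members (2.35 ± 0.0881, adjusted p = 1.67e-09), and it was 2.46 without KI replicate 2. ABCC3, a related pump, was at 121, 105 and 127 CPM in KI cells and 84.5, 78.8 and 82.3 CPM in parental cells (log2 0.55 ± 0.0559, adjusted p = 1.06e-05).

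The pentose phosphate and NADPH genes showed smaller differences, with 5 of 6 higher and none past 1.5-fold. PGD, which catalyses the step of the oxidative branch that yields ribulose 5-phosphate and NADPH, was at 287, 273 and 281 CPM in KI cells and 216, 213 and 215 CPM in parental cells (log2 0.41 ± 0.0353, adjusted p = 2.31e-06). ME1, the cytosolic malic enzyme and a further source of NADPH, was at 96.8, 97.7 and 96.0 CPM in KI cells and 70.9, 76.3 and 73.8 CPM in parental cells (log2 0.42 ± 0.043, adjusted p = 1.06e-05). Of the non-oxidative branch, which interconverts sugar phosphates, RPIA was at 11.6, 13.8 and 11.6 CPM in KI cells and 9.88, 10.7 and 9.01 CPM in parental cells (log2 0.35 ± 0.0887, adjusted p = 0.00887). RPE was at 74.0, 71.0 and 72.1 CPM in KI cells and 65.0, 68.5 and 65.7 CPM in parental cells (log2 0.15 ± 0.0386, adjusted p = 0.00923). TALDO1 was at 197, 244 and 195 CPM in KI cells and 177, 177 and 174 CPM in parental cells (log2 0.30 ± 0.0782, adjusted p = 0.0111), and its log2 fold change was 0.17 without KI replicate 2 (adjusted p = 0.000265). On these 6 libraries alone RPIA, RPE and TALDO1 were not called (adjusted p = 0.0526, 0.082 and 0.0835).

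TKT, transketolase, was at 833, 812 and 826 CPM in KI cells and 837, 823 and 836 CPM in parental cells. The libraries of the lines interleaved and the difference was not called (log2 0.01 ± 0.0394, adjusted p = 0.83). No alternative called it either, though the log2 fold change ran from -0.28 to 0.05 over them.

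OSGIN1 (chromosome 16, 83948282 to 83966332), a gene induced by oxidative stress, was at 27.8, 35.5 and 30.2 CPM in KI cells and 9.63, 9.61 and 9.06 CPM in parental cells (log2 1.75 ± 0.1, adjusted p = 6.58e-08). TRIM16L (chromosome 17, 18697998 to 18736118), a TRIM16-like gene, was at 112, 110 and 112 CPM in KI cells and 43.0, 45.7 and 44.4 CPM in parental cells (log2 1.35 ± 0.0519, adjusted p = 2.04e-09). Both were well above the parental range in every KI library. TRIM16 itself shares 69.7% of the leading TRIM16L transcript's words and was at 138 ± 2.29 CPM in KI cells and 87.3 ± 0.709 CPM in parental cells (SD, n = 3).

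**Figure D3:**
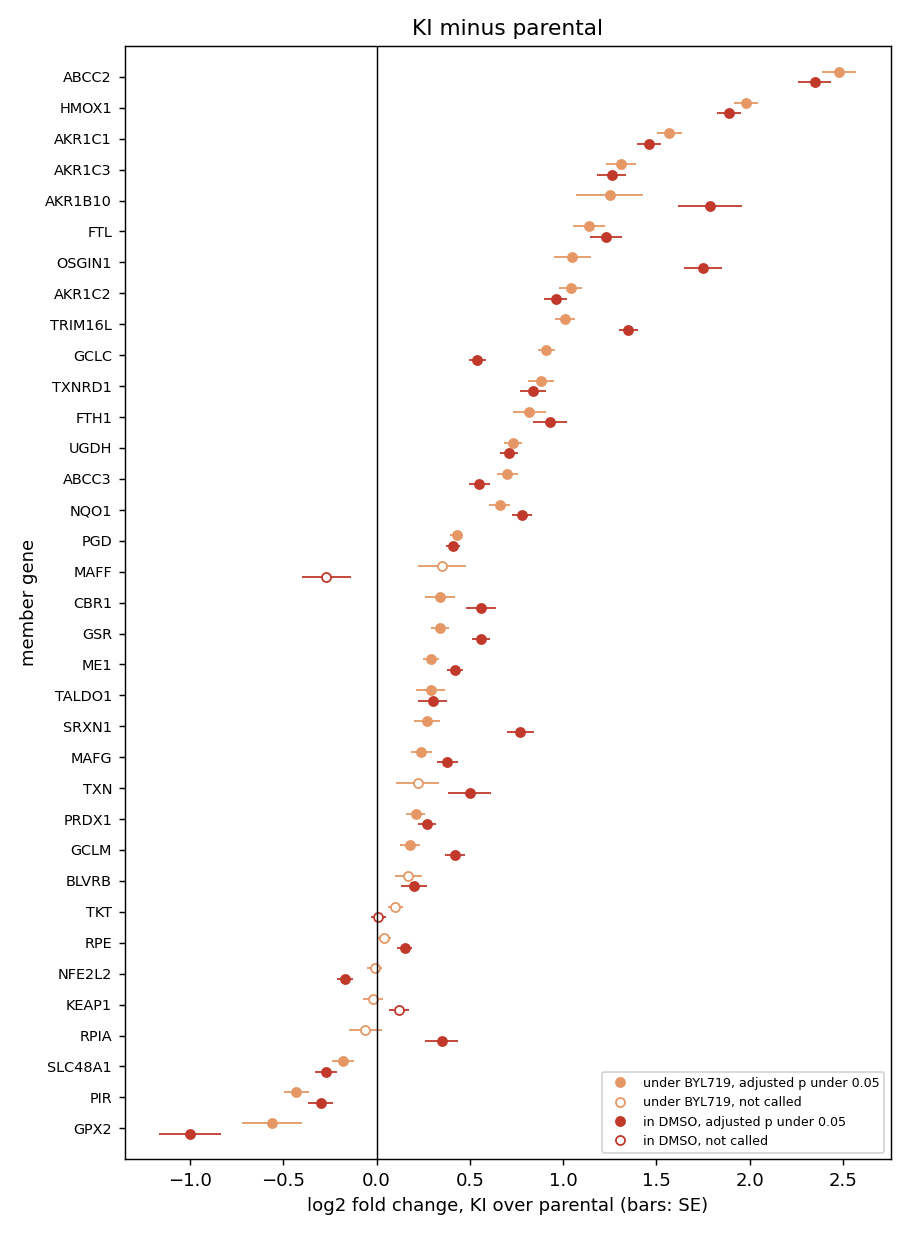
Log2 fold change of KI over parental cells for the 35 members, under BYL719 (orange) and in DMSO (red), with bars for the standard error, filled points called at an adjusted p under 0.05 and open points not called. ABCC2 and HMOX1 are farthest to the right in both conditions, and GPX2, PIR and SLC48A1 are called on the left.

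Compared per length, in TPM, the order of the members was led in both lines by the same genes. FTH1 ranked first of the 35 and PRDX1 second in both lines with DMSO, at 9744 and 1493 TPM in KI cells and 5425 and 1277 TPM in parental cells. FTL ranked 3 in KI cells (1326 TPM) and 5 in parental cells (587 TPM). TXN was at 1313 TPM in KI cells and 1009.9 TPM in parental cells, and TKT at 746 TPM in KI cells and 750.1 TPM in parental cells. At the low end GPX2 was last in KI cells (1.21 TPM, against 2.49 TPM in parental cells) and AKR1B10 was last in parental cells (2.44 TPM in KI cells, 0.707 TPM in parental cells).

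The difference between the lines was also examined under BYL719. Its levels come from other libraries than those in DMSO, while both comparisons share the spread estimated from all 12. Of the 35 members 24 were called higher and 3 lower, against 11.5% and 10.9% of all symbols. The median log2 fold change was 0.34 for the members and 0.01 for all symbols. The 27 calls were all among the 32 made in DMSO and in the same direction, an overlap that was not counted over all symbols. The other 5, NFE2L2, TXN, RPE, RPIA and BLVRB, were not called under BYL719, with log2 fold changes of -0.06 to 0.22. KI DMSO replicate 2 is in neither group of this comparison but bears on the filter, the scaling and the spread. Leaving it out called 30, adding TXN (adjusted p = 0.000449), BLVRB (0.00222) and TKT (0.0129). Over all symbols that fit called 7439 of 21497, against 4710 of 21055 in the main fit. MAFF was called when the fit was without KI BYL719 replicate 2 (log2 0.44, adjusted p = 0.0478).

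ABCC2 was at 36.6, 39.9 and 39.7 CPM in KI cells and 6.90, 7.06 and 7.31 CPM in parental cells under BYL719 (log2 2.48 ± 0.0891, adjusted p = 1.3e-09). HMOX1 was at 24, 22.4 and 24.9 CPM in KI cells and 6.21, 6.12 and 6.08 CPM in parental cells (log2 1.98 ± 0.0636, adjusted p = 5.19e-10). Neither gene's KI libraries came near the parental range. The AKR1C genes were higher by 1.57 ± 0.0658 (AKR1C1), 1.04 ± 0.0612 (AKR1C2) and 1.31 ± 0.08 (AKR1C3), with adjusted p from 4.89e-09 to 1.25e-07. FTL was at 596, 598 and 606 CPM in KI cells and 279, 282 and 274 CPM in parental cells (log2 1.14 ± 0.0865, adjusted p = 9.36e-07). FTH1 was at 3980.3, 3994 and 3439 CPM in KI cells and 2219, 2204 and 2170.1 CPM in parental cells (log2 0.82 ± 0.0892, adjusted p = 2.27e-05). The log2 fold changes of TXNRD1 and UGDH were 0.88 ± 0.0695 and 0.73 ± 0.0487 (adjusted p = 1.27e-06 and 3.03e-07).

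GCLC stood farther above the parental level than in DMSO, at 249.7, 237 and 239 CPM in KI cells and 131, 132 and 131 CPM in parental cells (log2 0.91 ± 0.0461, adjusted p = 2.6e-08). SRXN1 came closer to it, at 117, 103 and 90.8 CPM in KI cells and 87.1, 88.0 and 87.1 CPM in parental cells (log2 0.27 ± 0.0718, adjusted p = 0.0161). The SRXN1 call was lost without any 1 of the parental BYL719 libraries or without KI BYL719 replicate 1 (adjusted p up to 0.0676), and in the last of these fits the value was 0.15. Several smaller calls were as fragile. GCLM (log2 0.18 ± 0.0539, adjusted p = 0.0279) lost its call without parental DMSO replicate 1, any parental BYL719 library or KI BYL719 replicate 1 (adjusted p up to 0.189, log2 0.11 in the last). TALDO1 (log2 0.29 ± 0.0782, adjusted p = 0.0161) lost it without parental BYL719 replicate 2 or 3 or KI BYL719 replicate 1 or 3 (up to 0.0687). PRDX1 lost it without parental BYL719 replicate 3 or KI BYL719 replicate 1 (up to 0.0608), and CBR1 without KI BYL719 replicate 1 (0.0533). Of the lower genes, PIR (log2 -0.43 ± 0.0675, adjusted p = 0.000486) was called in every fit. GPX2 (log2 -0.56 ± 0.16, adjusted p = 0.0249) was not when any parental BYL719 library or KI BYL719 replicate 2 or 3 was left out (up to 0.102). SLC48A1 (log2 -0.18 ± 0.0591, adjusted p = 0.0414) was not in 8 of the 12 fits that left out a library, those without parental DMSO replicate 2 or 3, any parental BYL719 library, KI DMSO replicate 3 or KI BYL719 replicate 2 or 3 (up to 0.135).

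The effect of BYL719 within KI cells was mixed in direction. Of the 35 members 8 were higher and 11 lower with BYL719 than with DMSO, against 15.1% and 13.2% of all symbols, and the median log2 fold change was -0.09 against 0.02 for all symbols. Fitted on the 6 KI libraries alone, 12 were called, 5 higher and 7 lower, and 2614 of all 19978 symbols. Of the 28 members higher in KI than in parental cells in DMSO, 5 were higher and 11 lower with BYL719 in KI cells, and 12 were not called. These counts share the KI DMSO libraries, so a library that is high there raises the first comparison and lowers the second. The same split was not counted for all symbols higher in KI cells, so whether it is particular to the members was not tested.

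The genes that were higher included the AKR1C cluster. AKR1C2 was at 653, 686 and 768 CPM with BYL719 and 432, 435 and 419 CPM with DMSO in KI cells (log2 0.71 ± 0.0609, adjusted p = 6.15e-06). AKR1C3 was at 218, 219.5 and 234 CPM with BYL719 and 155, 187 and 149 CPM with DMSO (log2 0.44 ± 0.0788, adjusted p = 0.00124), and AKR1C1 at 403, 391 and 435 CPM against 309, 341 and 295 CPM (log2 0.37 ± 0.0643, adjusted p = 0.00104). None of the 3 overlapped between treatments. GCLC was at 249.7, 237 and 239 CPM with BYL719 and 163, 147 and 158 CPM with DMSO (log2 0.63 ± 0.0459, adjusted p = 1.71e-06), while GCLM, which encodes its partner subunit, was lower, at 131, 118 and 115 CPM with BYL719 and 149, 152 and 144 CPM with DMSO (log2 -0.30 ± 0.0539, adjusted p = 0.00153). The subunits of that enzyme therefore differed in opposite directions.

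MAFF was at 24.5, 17.5 and 18.0 CPM with BYL719 and 10.2, 12.4 and 12.6 CPM with DMSO in KI cells (log2 0.76 ± 0.131, adjusted p = 0.00101). NFE2L2 was at 124, 127 and 122 CPM with BYL719 and 111, 108 and 106 CPM with DMSO (log2 0.20 ± 0.0415, adjusted p = 0.00366), and on the KI libraries alone was not called (adjusted p = 0.0576). Its level with BYL719 was within 0.01 (log2) of that in parental cells with BYL719. KEAP1 was at 103, 99.7 and 103 CPM with BYL719 and 104, 116 and 105 CPM with DMSO (log2 -0.09 ± 0.053, adjusted p = 0.217), and MAFG at 78.1, 82.3 and 82.7 CPM with BYL719 and 77.6, 89.1 and 80.0 CPM with DMSO (log2 -0.03 ± 0.0578, adjusted p = 0.762). Neither was called.

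GPX2 was at 1.06, 0.952 and 0.827 CPM with BYL719 and 0.823, 0.534 and 0.624 CPM with DMSO in KI cells (log2 0.52 ± 0.167, adjusted p = 0.0361). ABCC3 was at 130.4, 133 and 135 CPM with BYL719 and 121, 105 and 127 CPM with DMSO (log2 0.17 ± 0.0557, adjusted p = 0.0373). Both calls were close to the threshold. GPX2 lost it without parental DMSO replicate 1, any parental BYL719 library, KI DMSO replicate 2 or 3, or KI BYL719 replicate 1 or 2 (adjusted p up to 0.131). ABCC3 lost it without parental DMSO replicate 1 or 3, KI DMSO replicate 2, or any parental or KI BYL719 library (up to 0.116), and its log2 fold change was 0.09 without KI DMSO replicate 2.

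OSGIN1 had the largest drop with BYL719 among the members. It was at 15.5, 12.6 and 13.4 CPM with BYL719 and 27.8, 35.5 and 30.2 CPM with DMSO in KI cells (log2 -1.18 ± 0.0983, adjusted p = 4.92e-06). AKR1B10 was at 1.6, 0.960 and 1.39 CPM with BYL719 and 2.23, 2.72 and 2.47 CPM with DMSO (log2 -0.92 ± 0.164, adjusted p = 0.00138), and so moved opposite to the AKR1C genes. SRXN1 was at 117, 103 and 90.8 CPM with BYL719 and 178, 179.9 and 176 CPM with DMSO (log2 -0.79 ± 0.072, adjusted p = 9.84e-06). TRIM16L was at 77.7, 69.2 and 75.6 CPM with BYL719 and 112, 110 and 112 CPM with DMSO (log2 -0.59 ± 0.051, adjusted p = 6.49e-06). In each of these 4 genes every BYL719 library was below every DMSO library.

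RPIA, ribose 5-phosphate isomerase, was at 8.66, 7.79 and 7.62 CPM with BYL719 and 11.6, 13.8 and 11.6 CPM with DMSO in KI cells (log2 -0.63 ± 0.0893, adjusted p = 0.000274). RPE was at 67.1, 65.1 and 66.0 CPM with BYL719 and 74.0, 71.0 and 72.1 CPM with DMSO (log2 -0.14 ± 0.0386, adjusted p = 0.0198), a call lost without KI BYL719 replicate 2 or 3 (adjusted p up to 0.0751). ME1 was at 87.0, 84.2 and 83.3 CPM with BYL719 and 96.8, 97.7 and 96.0 CPM with DMSO (log2 -0.20 ± 0.0429, adjusted p = 0.0048). Thus 3 of the 6 pentose phosphate and NADPH genes were lower and none was called higher. PGD, TKT and TALDO1 had log2 fold changes of -0.05, 0.10 and -0.01 and were not called. Without KI DMSO replicate 2 TALDO1 turned to 0.11 (adjusted p = 0.00951) and TKT was called at 0.09 (adjusted p = 0.0256). TKT was also called with protein-coding transcripts only and with DESeq2, and its log2 fold change ran from 0.05 to 0.39 over the alternatives.

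Smaller drops were called for 3 more genes. CBR1 was at 97.9, 92.0 and 94.2 CPM with BYL719 and 112, 140.3 and 115 CPM with DMSO in KI cells (log2 -0.38 ± 0.0793, adjusted p = 0.0039), and -0.26 without KI DMSO replicate 2. GSR was at 104, 98.1 and 99.0 CPM with BYL719 and 121, 123 and 119.9 CPM with DMSO (log2 -0.28 ± 0.0474, adjusted p = 0.000992). NQO1 was at 602, 542 and 579 CPM with BYL719 and 638, 695 and 641 CPM with DMSO (log2 -0.20 ± 0.0552, adjusted p = 0.0167). The NQO1 call was lost without KI BYL719 replicate 2 (adjusted p = 0.0759). CBR1, ME1, NQO1 and RPE were not called on the KI libraries alone, where the adjusted p of CBR1 was 0.0567 and that of ME1 0.068.

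Members with wide differences between the lines that were not called for BYL719 in KI cells included HMOX1 (log2 0.00 ± 0.06), TXNRD1 (0.09 ± 0.0689), FTH1 (-0.08 ± 0.0887), FTL (-0.19 ± 0.0854), ABCC2 (-0.17 ± 0.0824) and UGDH (0.06 ± 0.0483), with adjusted p from 0.125 to 0.979. ABCC2 was called without KI DMSO replicate 2 (log2 -0.29, adjusted p = 9.9e-05). FTL was called without KI DMSO replicate 1 or 3 (log2 -0.26 to -0.25, adjusted p up to 0.0491), fits in which replicate 2 weighs more, and TXN without KI DMSO replicate 1 (log2 -0.36, adjusted p = 0.0322).

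**Figure D4:**
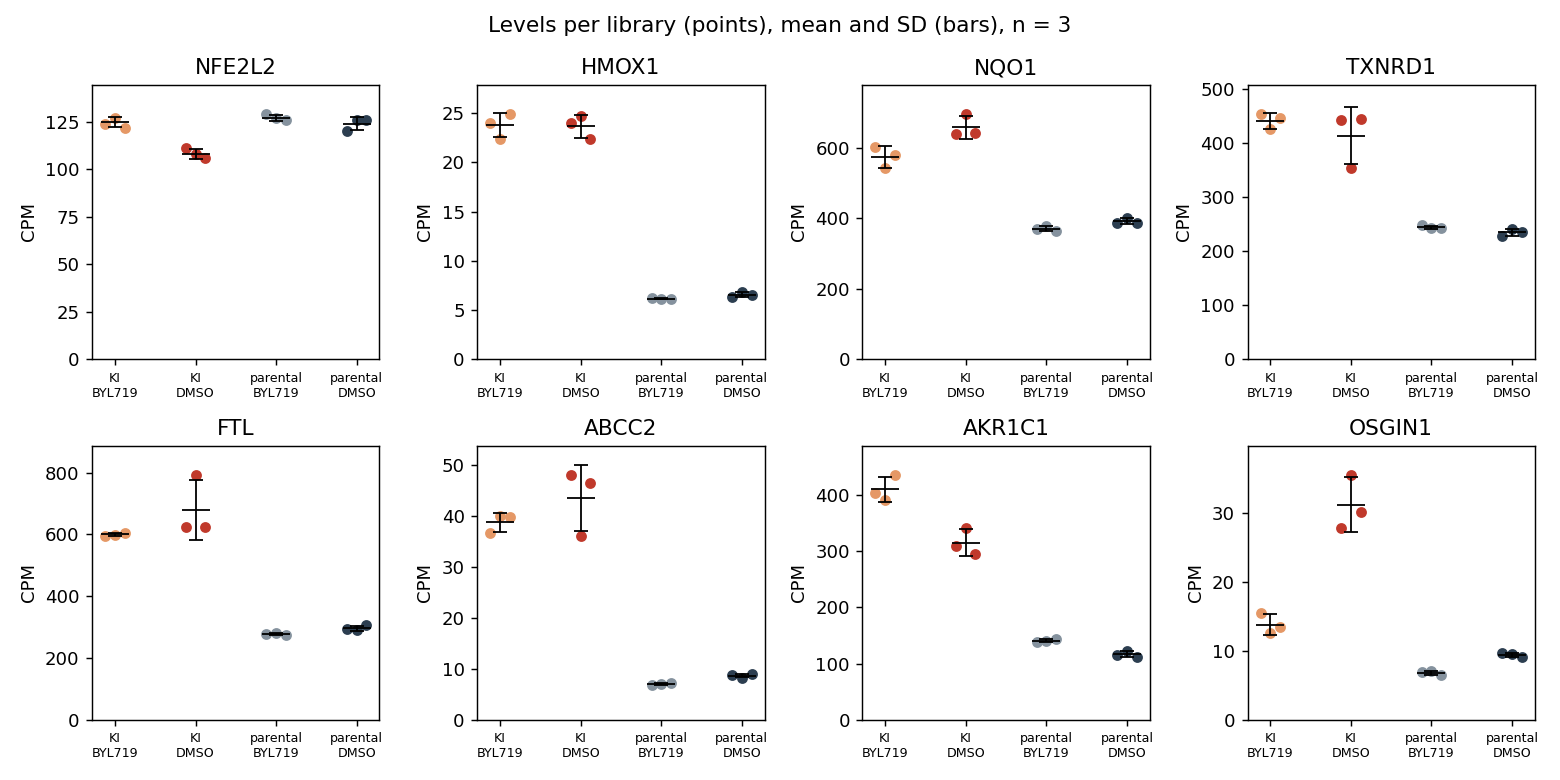
CPM of 8 members in each library of the 4 groups (points), with the mean and SD as bars (n = 3) and each axis starting at 0. HMOX1, NQO1, TXNRD1, FTL, ABCC2, AKR1C1 and OSGIN1 lie higher in KI than in parental cells under both treatments, NFE2L2 does not, and OSGIN1 in KI cells is lower with BYL719 than with DMSO.

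In parental cells BYL719 changed few members. It gave 3 called higher and 2 called lower, against 0.831% and 0.589% of all symbols, with a median log2 fold change of -0.02 for members and 0.01 for all symbols. AKR1C2 was at 329, 353 and 363 CPM with BYL719 and 219.7, 231 and 223 CPM with DMSO (log2 0.63 ± 0.0609, adjusted p = 0.000377), and was called in every fit. AKR1C3 was at 89.8, 92.4 and 93.0 CPM with BYL719 and 67.8, 70.9 and 70.0 CPM with DMSO (log2 0.39 ± 0.0792, adjusted p = 0.0304). GCLC was at 131, 132 and 131 CPM with BYL719 and 105, 111 and 111 CPM with DMSO (log2 0.26 ± 0.0459, adjusted p = 0.0155). All 3 were separated without overlap.

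OSGIN1 was lower, at 6.89, 7.01 and 6.53 CPM with BYL719 and 9.63, 9.61 and 9.06 CPM with DMSO in parental cells (log2 -0.47 ± 0.101, adjusted p = 0.0419). TRIM16L was lower too, at 38.0, 37.9 and 36.3 CPM with BYL719 and 43.0, 45.7 and 44.4 CPM with DMSO (log2 -0.25 ± 0.0514, adjusted p = 0.0349). With the replicate number as a block, at which correlations between these parental libraries hint, OSGIN1 (adjusted p = 0.0708) and TRIM16L (adjusted p = 0.0762) were not called and 3 members remained. All 5 genes were also called in KI cells, each in the same direction. In KI cells 5968 of all 21055 symbols were called, and the overlap of calls between the lines was not counted over all symbols. AKR1C1 (log2 0.26 ± 0.0645, adjusted p = 0.0784) and SRXN1 (log2 -0.29 ± 0.0718, adjusted p = 0.0772) came next and were not called. SRXN1 was at 87.1, 88.0 and 87.1 CPM with BYL719 and 108, 107 and 104 CPM with DMSO, and AKR1C1 at 138, 140.4 and 143 CPM with BYL719 and 116, 123 and 112 CPM with DMSO, so neither overlapped.

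The number called in parental cells varied widely with the libraries fitted. Over all symbols the main fit called 299 of 21055. Fitted on the parental libraries alone, 14 members were called, 5 higher and 9 lower, and 3486 of all 20098 symbols. The fit without KI DMSO replicate 2 called 1973 of all 21497 symbols, so the count rose for the whole table and not only for the members. Leaving out KI DMSO replicate 2 gave 10 (5 higher, 5 lower), adding AKR1C1 (adjusted p = 0.00123), ABCC2 (0.000729), CBR1 (0.00577), FTL (0.0361) and MAFG (0.0452). Leaving out parental DMSO replicate 1 or 2 or any parental BYL719 library gave 1, AKR1C2, leaving out parental DMSO replicate 3 gave 2 and leaving out KI DMSO replicate 3 gave 3. AKR1C3, GCLC, OSGIN1 and TRIM16L each lost their call in some of these fits, with adjusted p up to 0.209, 0.119, 0.212 and 0.203. SRXN1 gained a call without KI BYL719 replicate 1 or 3 (adjusted p of 0.0112 to 0.0263).

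**Figure D5:**
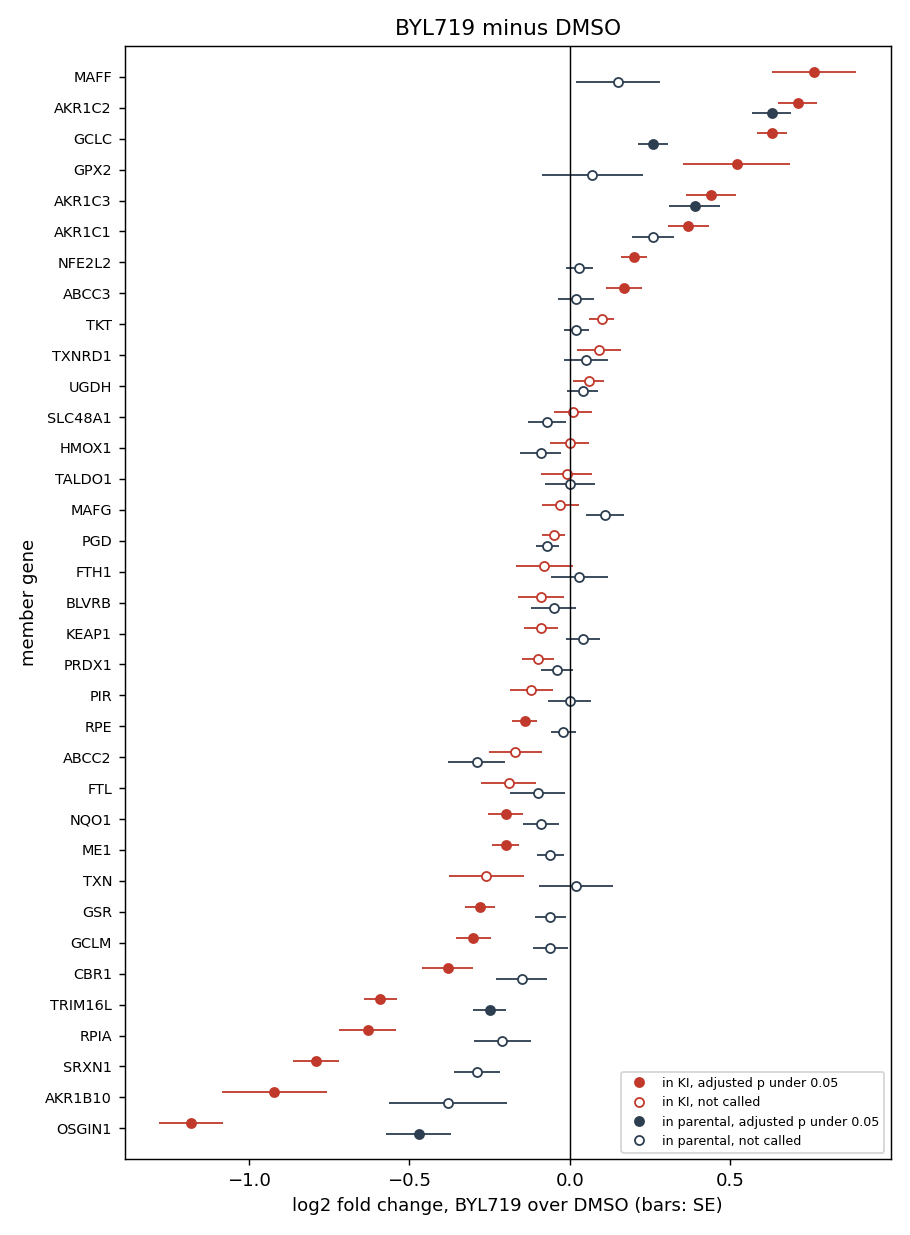
Log2 fold change of BYL719 over DMSO for the 35 members in KI (red) and parental cells (dark blue), with bars for the standard error, filled points called at an adjusted p under 0.05 and open points not called. AKR1C2 and AKR1C3 lie at nearly the same place in both lines, and OSGIN1, SRXN1, TRIM16L and GCLC lie apart. Others lie apart too, such as MAFF, AKR1B10, GPX2 and RPIA, whose difference between the lines was not called.

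The difference between the lines in their response to BYL719 was tested directly, as an interaction. It was called for 4 of 35 members, 1 with a positive and 3 with a negative value, against 2.09% and 0.798% of all symbols. The GCLC increase with BYL719 was larger in KI than in parental cells by 0.37 ± 0.0648 (log2, adjusted p = 0.0107). The decreases of OSGIN1 (-0.70 ± 0.14, adjusted p = 0.0197), SRXN1 (-0.50 ± 0.101, adjusted p = 0.0211) and TRIM16L (-0.34 ± 0.0723, adjusted p = 0.028) were larger in KI cells. None of these 4 calls held in every fit. GCLC lost its call with effective-length offsets (adjusted p = 0.0978) and kept it when any library was left out. OSGIN1 lost it without any 1 of the parental DMSO libraries, parental BYL719 replicate 1 or 2, or KI BYL719 replicate 2 or 3 (adjusted p up to 0.0679). SRXN1 lost it without any 1 of the parental libraries or KI BYL719 replicate 2 (up to 0.0701), and TRIM16L without any of these, KI DMSO replicate 3 or KI BYL719 replicate 3 (up to 0.0925). TRIM16L also lost it with the replicate block (adjusted p = 0.0592), as it did with effective-length offsets. Only 1 call was left without any 1 of the parental DMSO libraries, without parental BYL719 replicate 1 or 2, or without KI BYL719 replicate 2, and 2 were left without parental BYL719 replicate 3 or KI BYL719 replicate 3. The AKR1C genes had interaction values of 0.11 ± 0.091 (AKR1C1), 0.08 ± 0.0858 (AKR1C2) and 0.05 ± 0.111 (AKR1C3) and were not called. MAFF had 0.61 ± 0.185 (adjusted p = 0.109). Without KI DMSO replicate 2, GSR (-0.21, adjusted p = 0.033) and NFE2L2 (0.17, adjusted p = 0.0371) were called as well, and GCLM was called without KI BYL719 replicate 1 (-0.33, adjusted p = 0.0267).

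Other genes of the pathway were counted in 5 related lists. These lists, like the members, were chosen with earlier results of these data known, so their shares are descriptive. Of 10 genes that control NRF2 or resemble it, 1 was higher (10%) and 3 lower (30%) in KI than in parental cells in DMSO, against 17% and 17.3% of all symbols. SQSTM1, which encodes p62, a protein that binds KEAP1 and takes it to autophagy, averaged 0.86 ± 0.0531 higher (log2, adjusted p = 1.31e-07). The lower genes were NFE2L1, a relative of NRF2 (-0.26 ± 0.0622), the ubiquitin ligase adaptor BTRC (-0.30 ± 0.0795) and the coactivator CREBBP (-0.47 ± 0.132). KI DMSO replicate 2 was the lowest library for the last 3, and without it they were at -0.18, -0.19 and -0.28, still called. With BYL719 in KI cells 5 of the 10 were higher, against 15.1% of all symbols, NFE2L1 (0.53 ± 0.0623), CREBBP (0.62 ± 0.132), EP300 (0.58 ± 0.155), BACH1 (0.42 ± 0.105) and BTRC (0.27 ± 0.0796). BACH1 encodes a repressor that competes with NRF2 for its elements. Without KI DMSO replicate 2, which was low for these genes, EP300 was at 0.34, BACH1 at 0.27 and BTRC at 0.15. Only 2 of the 10 were called between the lines in DMSO without parental DMSO replicate 3, and 3 for BYL719 in KI cells without KI BYL719 replicate 1. On the libraries of each comparison alone, 2 of the 10 were called between the lines in DMSO and 1 for BYL719 in KI cells.

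Of 24 further glutathione and thiol genes 11 were higher (45.8%) and 2 lower (8.33%) in KI cells in DMSO, against the same 17% and 17.3%. SLC7A11, the cystine importer, was at 191, 149.6 and 189 CPM in KI cells and 76.1, 77.1 and 73.8 CPM in parental cells (log2 1.25 ± 0.0871, adjusted p = 3.82e-07). GLRX, glutaredoxin (1.2 ± 0.0901), the low-level secreted peroxidase GPX3 (1.17 ± 0.125) and SOD2, the mitochondrial superoxide dismutase (0.62 ± 0.0546), were also higher in DMSO. CAT, catalase (-0.14 ± 0.0436), and TXNRD3 (-0.24 ± 0.0528) were lower. On the libraries of this comparison alone 6 of the 24 were called, 5 higher and 1 lower, and without parental DMSO replicate 1, 2 or 3 the fit called 7, 8 and 7. With BYL719 in KI cells 2 of the 24 were higher (8.33%) and 1 lower (4.17%), against 15.1% and 13.2% of all symbols. The higher ones were SLC7A11 (0.37 ± 0.0857) and CAT (0.26 ± 0.0436). SLC3A2, which encodes the partner chain of SLC7A11, was lower (-0.38 ± 0.0718).

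Of 12 tested detoxification and export genes 5 were higher (41.7%) and 1 lower (8.33%) in KI cells in DMSO, and without KI DMSO replicate 2 these were 6 and 4. Of all 21497 symbols, the fit without that library called 4232 higher and 4154 lower. CES1, a carboxylesterase, was higher by 1.44 ± 0.151, and by 1.17 without KI replicate 2, and AKR1B1, aldose reductase, by 1.07 ± 0.0666. UGT1A6, a glucuronosyltransferase whose locus shares exons among its members, was lower (-1.03 ± 0.104). Of 7 haem and iron genes 3 were higher (42.9%) and 1 lower (14.3%). TFRC, the transferrin receptor, was at 286, 219 and 295 CPM in KI cells and 130.2, 128 and 125 CPM in parental cells (log2 1.09 ± 0.0862, adjusted p = 1.16e-06). SLC40A1, the iron exporter, was called lower from 1 read in all KI and 36 in all parental libraries with DMSO. On these libraries alone 1 of the 7 was called, and 2 without parental DMSO replicate 2 or 3. Of 12 tested genes of NADPH and ribose metabolism outside the 35, 2 were higher (PRPS1, 0.21 ± 0.0411, and MTHFD2, 0.27 ± 0.0421) and 2 lower (H6PD, -0.23 ± 0.0696, or -0.15 without KI DMSO replicate 2, and DERA, -0.31 ± 0.0583). These shares, 16.7% each, were near those of all symbols. Fitted on all 12 libraries, edgeR called none of the genes of these 5 lists for BYL719 in parental cells or for the interaction. For the lists in the order above, 1, 3, 1, 1 and 2 genes had an unadjusted p under 0.05 for BYL719 in parental cells, and 3, 3, 2, 1 and 2 for the interaction. DESeq2 called 1 of these genes in parental cells and 3 for the interaction. On the parental libraries alone edgeR called 3, 4, 2, 3 and 4 of them, and without KI DMSO replicate 2 it called 1, 2, 0, 2 and 2 in parental cells and 3, 4, 1, 1 and 2 for the interaction. These fits also called many more of all symbols. They called 3486 of 20098 on the parental libraries alone. Without KI DMSO replicate 2 they called 1973 of 21497 in parental cells and 1874 of 21497 for the interaction. DESeq2 called 880 of 16305 in parental cells and 1422 of 16305 for the interaction.

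Some members are hard to count because their transcripts share sequence. For 11 of 35, over 20% of the 31-base words of the leading transcript occur in another symbol. FTH1 had the highest share, 88.8% of its words, and 64.3% of its words occur in BEST1, its neighbour. BEST1 was at 4.35 ± 0.917 CPM in KI cells and 2.21 ± 0.348 CPM in parental cells with DMSO (SD, n = 3). SRXN1 shares 84.9% with AL121758.1, which was at 0 CPM in both groups with DMSO. For TXNRD1, GCLC, OSGIN1, PIR, TKT, TALDO1, ME1, ABCC2, ABCC3, GPX2 and BLVRB the share was 0 for the leading transcript. Within genes, the leading KEAP1 isoform KEAP1-201 took 57.1, 58.8 and 57.6% of KEAP1 reads in KI cells and 63.6, 68.0 and 64.9% in parental cells with DMSO, without overlap. NFE2L2-202 took 18.4, 19.5 and 22.9% of NFE2L2 reads in KI cells with BYL719 and 13.9, 11.1 and 14.3% in KI cells with DMSO. TKT-204, annotated as subject to nonsense-mediated decay, took 13.2, 40.0 and 18.8% of TKT reads in KI cells and 10.4, 8.69 and 12.1% in parental cells with DMSO, the highest again in KI replicate 2. These shares are Salmon's estimates and were not tested.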

How the data were processed

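RNA of 12 MCF10A libraries was read as pairs of 150 nt, per the labels. Per the submitters' processing notes, the authors used Trim Galore 0.6.1, cutadapt, Salmon 1.2.1 and DESeq2 1.28.1, with GRCh38 for human. The deposited tables give, per transcript, expected counts (estimated reads, not whole numbers), TPM (scaled by length and to a fixed sum in each library) and effective length, a number without a further unit, per the file headers. The sources used here do not state strandedness or the transcript release. Of 207749 transcript IDs, 93.6% are in GENCODE 29, used here for positions and shared 31-base words.

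Deposited expected counts were summed by symbol, rounded and fitted with edgeR 4.0.16 (R 4.3.3; filterByExpr, TMM, robust quasi-likelihood, group means, 8 residual degrees of freedom, two-sided). Salmon's assignment error is not in these tests. The fit was tested on simulated data in which no library was set apart as KI DMSO replicate 2 is, so that test does not cover its influence. Between parental DMSO and parental BYL719 libraries, deviations of same-numbered replicates correlated at 0.16, 0.26 and 0.27. This is a hint of pairing from the data and not from the labels, and differently numbered replicates were not compared. In every other pair of groups at least 1 correlation was at or below 0.1, and the fit has no block. The members and lists were chosen with earlier results of these data known. Values in every library are given for the regulators, for members called between the lines in DMSO by at least 1.5-fold and for those called for BYL719 or the interaction; other genes are given by examples. Alternatives were other scalings, DESeq2 1.42.0, no filter, sums by gene ID, protein-coding transcripts only, length offsets, a replicate block, only the groups compared, and each library left out. The genotype in the RNA and 1 further list gene, absent from the tables used, were not analysed here.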

Additional observations from a re-analysis of the deposited data

Results flagged for a closer look

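For 4 members the effect of BYL719 differed between KI and parental cells by the interaction test of edgeR. GCLC differed by 0.37 (log2), with 0.63 in KI and 0.26 in parental cells. OSGIN1 differed by -0.70, with -1.18 in KI and -0.47 in parental cells. SRXN1 differed by -0.50, with -0.79 in KI and -0.29 in parental cells. TRIM16L differed by -0.34, with -0.59 in KI and -0.25 in parental cells. In each gene the lines moved in the same direction and differed in size. The effect in parental cells was called for GCLC, OSGIN1 and TRIM16L and not for SRXN1.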

How the results depend on the processing

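Each result was recomputed under 9 other settings and with each of the 12 libraries left out. The count of members that differed between the lines in DMSO ranged from 26 to 32, and under BYL719 from 21 to 30. The count for BYL719 in KI cells ranged from 12, when only the groups compared were fitted, to 21. The count in parental cells, 5, became 1 with effective-length offsets, 3 with the replicate block, 14 with only the groups compared and 8 with DESeq2, and 1 to 10 with a library left out. The interaction count, 4, became 2 with effective-length offsets, 7 with DESeq2, and 1 to 6 with a library left out. TALDO1 ranged from -0.07 to 0.11 for BYL719 in KI cells with a library left out, the last without KI DMSO replicate 2. Over all symbols, 299 of 21055 were called for BYL719 in parental cells, and 135 of 21055 with effective-length offsets. With only the groups compared 3486 of 20098 were called, with DESeq2 880 of 16305, and 1973 of 21497 without KI DMSO replicate 2. The interaction gave 607 of 21055 symbols, 1422 of 16305 with DESeq2, 275 of 21055 with offsets and 1874 of 21497 without that library. For BYL719 in KI cells 5968 of 21055 became 2614 of 19978 with only the groups compared. The cause was not tested, apart from what each setting changes by construction. Of the called members, 25 of 32 kept their call in DMSO in all 21 alternatives, 20 of 27 under BYL719, 12 of 19 for BYL719 in KI cells, 1 of 5 in parental cells and 0 of 4 for the interaction. Of 18 same-numbered pairs 8 had correlated deviations above 0.1 (-0.12 to 0.27), among them all 3 of the parental libraries. With the replicate block the counts were 32, 27, 19, 3 and 3 in the order above. OSGIN1 and TRIM16L lost their calls in parental cells (adjusted p = 0.0708 and 0.0762) and TRIM16L its interaction call (0.0592), and the block changed no other call of a member. Depth was at least 120177015 read pairs in every library. GPX2 and AKR1B10, the lowest members, rest on few reads.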
